A study of Drosophila melanogaster with 3 samples.

Results

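The T-box genes examined here are 8 of the 13945 protein-coding genes on the Drosophila melanogaster chromosome arms: org-1, Doc1, Doc2, Doc3, mid, H15, bi and byn. They were chosen by family name, and because strong Pdp1-eGFP peaks holding a PAR bZIP site lie at org-1 and near Doc2. Peak strength and that site therefore took part in the choice, and their values at these genes are given as a description, with no test. Each gene was followed over its body plus 10 kb on each side in the Ensembl annotation, which gave windows of 22.1 to 92.8 kb.

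Binding was measured by chromatin immunoprecipitation and sequencing (ChIP-seq) with an antibody to GFP. The flies, all of the strain Pdp1-MiMIC-GFP, carried an eGFP exon in an intron of the endogenous Pdp1 gene, so that Pdp1 was made as an eGFP fusion from its own locus. The 3 biological replicates were whole embryos of mixed sex collected over 0 to 24 h, with chromatin sonicated to 200 to 800 bp, and they form 1 group without a comparison group. A peak in whole embryos does not show in which cells or at which stage Pdp1 was bound. On the chromosome arms, the lists of replicates 1 and 3 held 30000 peaks each and that of replicate 2 held 29999, each with the peak caller's own signal, a list pooled over the replicates held 27719, and the thresholded list held 4622. The thresholded list was labelled as the optimal list by irreproducible discovery rate (IDR), a measure of agreement between replicates. It matched the part of the pooled list at or above a signal of 102. The pooled list was labelled as peaks and background, the input to IDR. A pooled summit under the threshold may therefore be background. Read depth is unknown, and signals are not scaled between lists.

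T-box proteins share a DNA-binding domain first described in the Brachyury protein, and many of them set the fate of mesodermal and other tissues. In the fly embryo, org-1 acts in founder cells of the visceral muscle and in alary muscles, and the Dorsocross genes Doc1, Doc2 and Doc3 act in the amnioserosa and the dorsal mesoderm that gives the heart. The paired genes mid and H15 act in the heart tube and the ventral epidermis, bi (optomotor-blind) in the optic lobe and the wing field, and byn, the fly counterpart of Brachyury, in the hindgut. Pdp1 is a basic leucine zipper factor of the PAR family, known for its part in muscle gene expression and in the circadian clock.

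Sequences around 4 summits are shown, each for the reason given here. The first pair are the thresholded summits that hold the PAR bZIP site TTAYGTAA, where Y is C or T. The next is the summit beyond mid, of nearly the same signal as that at org-1 but with no such site. The last is the strongest summit near byn, which stayed below the threshold. All are 101 bases of the plus strand of dm6 centred on the summit, read from the Release 6 genome. Capitals mark the PAR bZIP site at org-1 and Doc2 and a T-box site near byn.
org-1, chrX:8455355-8455455: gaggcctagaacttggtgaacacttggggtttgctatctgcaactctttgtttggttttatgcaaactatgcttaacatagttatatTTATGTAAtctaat
Doc2, chr3L:9025874-9025974: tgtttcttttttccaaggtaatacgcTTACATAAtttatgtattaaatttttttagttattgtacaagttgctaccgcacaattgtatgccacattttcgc
mid, chr2L:5476820-5476920: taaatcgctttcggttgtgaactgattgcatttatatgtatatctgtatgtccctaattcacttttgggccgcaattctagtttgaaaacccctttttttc
byn, chr3L:11918321-11918421: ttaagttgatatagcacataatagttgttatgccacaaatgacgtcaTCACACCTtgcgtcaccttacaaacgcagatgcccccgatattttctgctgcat

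In the thresholded list, 7 of the 8 genes had a summit in their window, byn being the exception. Over all protein-coding genes the share was 64.0%, and over the 7114 genes whose windows were in the members' range of length it was 71.3%. Only org-1 had a thresholded summit within 500 bp of an own transcription start site (TSS), which is 1 of 8 genes against 20.7% of all genes. Only bi had one inside the gene body, again 1 of 8 genes (12.5%), against 12.0% of all genes. With 8 genes these counts are close to what genes in general showed, and nothing particular to the family is read from them. The 8 windows held 11 distinct thresholded summits, 1 of them shared by Doc2 and Doc3. Merged, the windows covered 264 kb, with 4.16 thresholded summits per 100 kb against 3.45 over the chromosome arms. Doc2 had 4 summits, a number reached or passed by 9.14% of genes, org-1 and Doc3 had 2 each, and Doc1, mid, H15 and bi had 1 each.

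**Figure D1:**
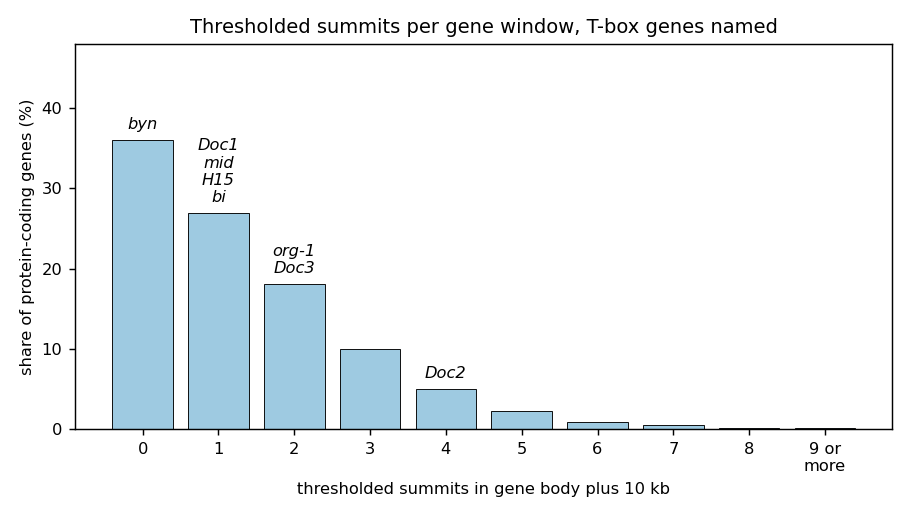
Share of the 13945 protein-coding genes (bars, percent) by the number of thresholded summits in the gene body plus 10 kb, with the T-box genes named above their bar. byn is in the bar at 0, which holds 36.0% of genes, and Doc2 is alone among the 8 at 4.

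**Figure D2:**
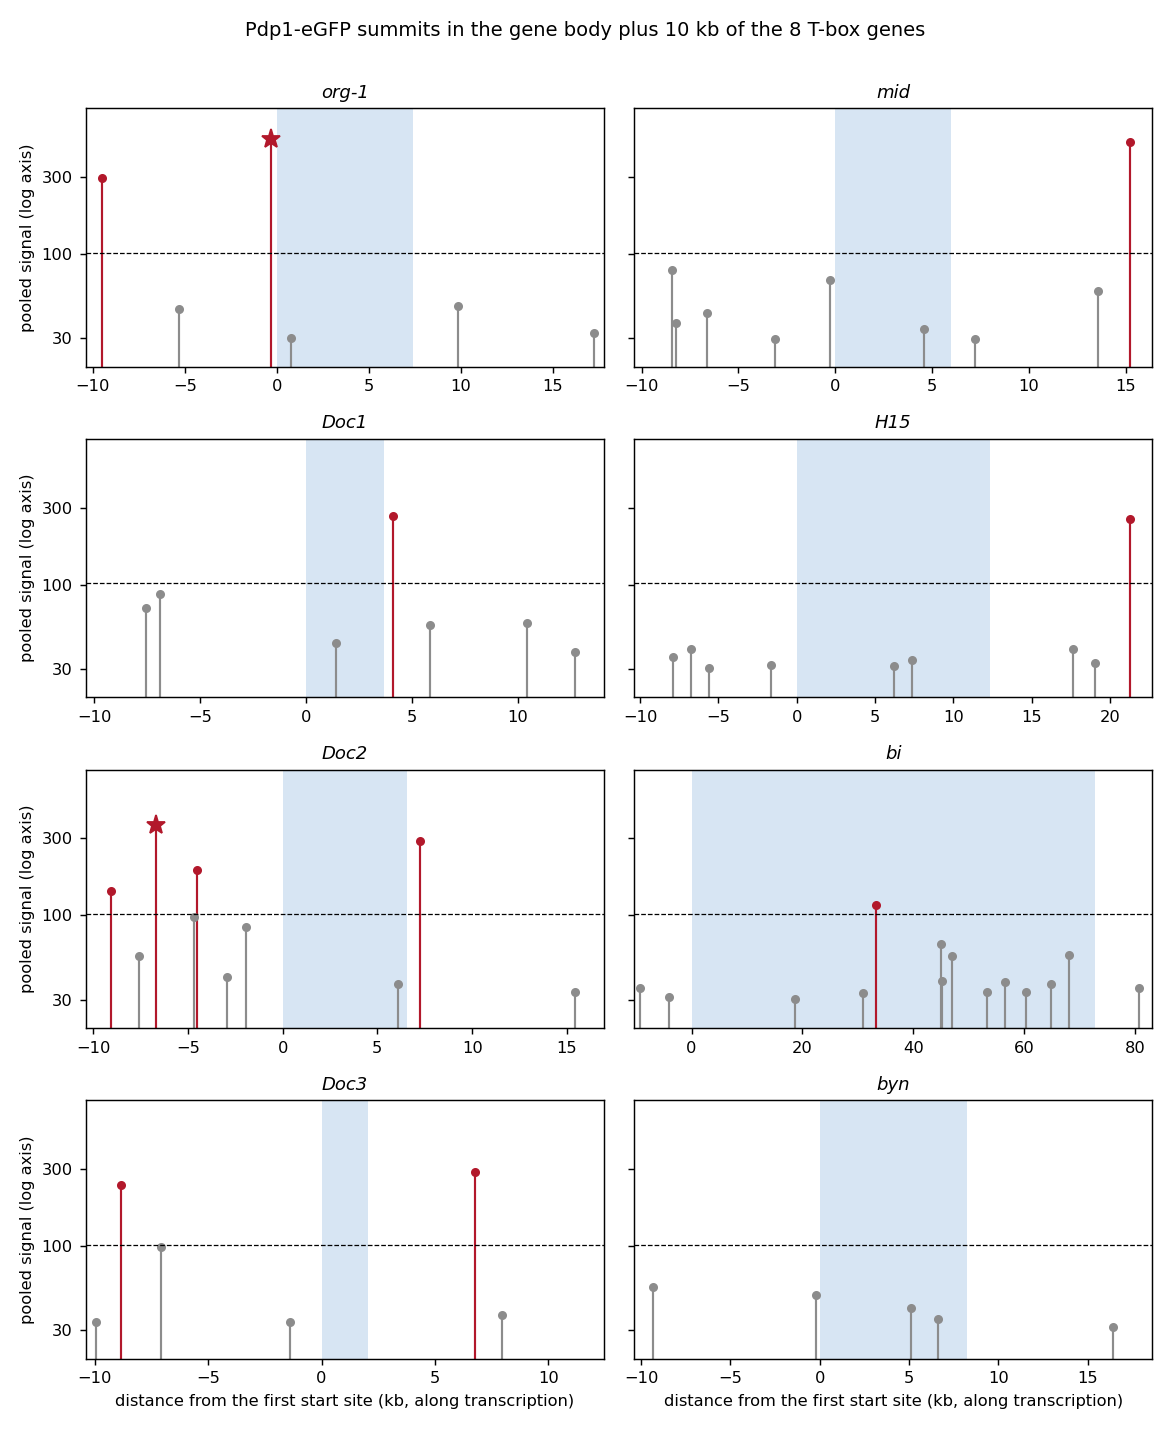
Pooled signal (log axis) of every pooled summit against the distance along transcription from the first start site, for each T-box gene. The shaded span is the gene body, red stems passed the threshold (dashed line at a signal of 102), grey stems did not, and stars hold TTAYGTAA within 50 bp of the summit. The red stems stand outside the shaded spans at every gene but bi, and byn has none.

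The peak of highest pooled signal in the family lay at org-1 (FBgn0021767, chrX:8447691-8455069, minus strand), a gene needed for visceral and alary muscle. Its peak at chrX:8455273-8455555 had a pooled signal of 517, rank 310 of the pooled list, and its summit was 336 bp upstream of the gene. The replicate signals were 162, 206 and 144 in replicates 1, 2 and 3, with a mean of 171 ± 31.9 (SD, n = 3). The ranks were 494, 227 and 362, so every replicate placed it among its strongest peaks. The summits in the replicate lists lay within 1 bp of the pooled summit. The site TTATGTAA, at chrX:8455442-8455449, was centred 40.5 bp to the right of the summit, near the right end of the sequence shown above.

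A further thresholded peak of the org-1 window, at chrX:8464529-8464700, was 9489 bp upstream of org-1 and only 120 bp upstream of a TSS of Sptr. Sptr encodes sepiapterin reductase, an enzyme of pterin synthesis. The pooled signal was 295 and the replicate signals were 91.9, 115 and 85.2 (97.5 ± 15.9, SD, n = 3). In each replicate it was weaker than the peak at the org-1 promoter, and it held no PAR bZIP site. The other 4 pooled summits of the org-1 window were all under the threshold, at signals of 30.2 to 47.8, and none was found in all 3 replicate lists.

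The Dorsocross genes lie together on chromosome arm 3L, in the order Doc3, Doc2 and Doc1 along the plus strand. Doc3 (FBgn0035954, chr3L:9005196-9007249) and Doc1 (FBgn0028789, chr3L:9041375-9045042) are on the plus strand and Doc2 (FBgn0035956, chr3L:9012686-9019246) is on the minus strand. Doc3 and Doc2 are 5436 bp apart, and 22128 bp separate Doc2 from Doc1. The joined windows of 59.8 kb held 6 thresholded summits, or 10 per 100 kb, and 20 pooled summits of any strength. None of the 6 lay inside a Doc gene and none was within 500 bp of a TSS of one. Neighbouring summits were 2181 to 17231 bp apart.

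Of the 6 peaks, 3 lay upstream of Doc2, in the long gap between Doc2 and Doc1. The middle one, at chr3L:9025790-9025999 and 6678 bp upstream of Doc2, was the strongest of the cluster, with a pooled signal of 361 and rank 683. Its replicate signals were 118, 111 and 128 (119 ± 8.23, SD, n = 3). Its ranks were 935, 766 and 469. It is the peak with the PAR bZIP site, read as TTACATAA on the plus strand at chr3L:9025900-9025907 and centred 20.5 bp to the left of the summit.

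The peak closest to Doc2, at chr3L:9023538-9023947, lay 4497 bp upstream with a pooled signal of 191. Its replicate signals were 88.9, 53.7 and 52.0 (64.9 ± 20.8, SD, n = 3), at ranks 1530, 2158 and 2469. The outer peak, at chr3L:9028070-9028479, lay 9029 bp upstream with a pooled signal of 141. Its replicate signals were 33.8, 54.1 and 48.7 (45.5 ± 10.5, SD, n = 3). In replicate 1 it had rank 6761, outside the top 4622 peaks, and in replicates 2 and 3 ranks 2134 and 2711. The middle peak exceeded both neighbours in each of the 3 replicate lists.

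Between Doc3 and Doc2, a narrow peak at chr3L:9011904-9012038 had its summit 711 bp beyond the 3' end of Doc2 and 4726 bp beyond that of Doc3. Its nearest protein-coding TSS, 2137 bp away, was that of CG5194. The pooled signal was 288, and the replicate signals were 123, 85.3 and 77.5 (95.4 ± 24.5, SD, n = 3). This is the summit that the Doc2 and Doc3 windows share, so it is counted for both genes.

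The outermost peaks of the cluster lay near a start site of another gene on the Doc3 side and near the end of Doc1 on the other. Upstream of Doc3, the peak at chr3L:8996169-8996578 was 8822 bp from Doc3 and 125 bp upstream of a TSS of smg, which encodes the translational repressor Smaug. Its pooled signal was 240, with replicate signals of 72.3, 72.2 and 87.9 (77.4 ± 9.03, SD, n = 3). At the other end, the peak at chr3L:9045301-9045710 lay 464 bp beyond the 3' end of Doc1 and 1933 bp upstream of Argk2. Its pooled signal was 268, with replicate signals of 93.7, 83.9 and 84.3 (87.3 ± 5.53, SD, n = 3). Past the Doc1 window, 12852 bp from the gene, a peak at chr3L:9057689-9058098 in the Argk1 gene had a pooled signal of 255 and also held TTATGTAA. Argk1 encodes an arginine kinase, and this summit was 313 bp upstream of one of its start sites.

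**Figure D3:**
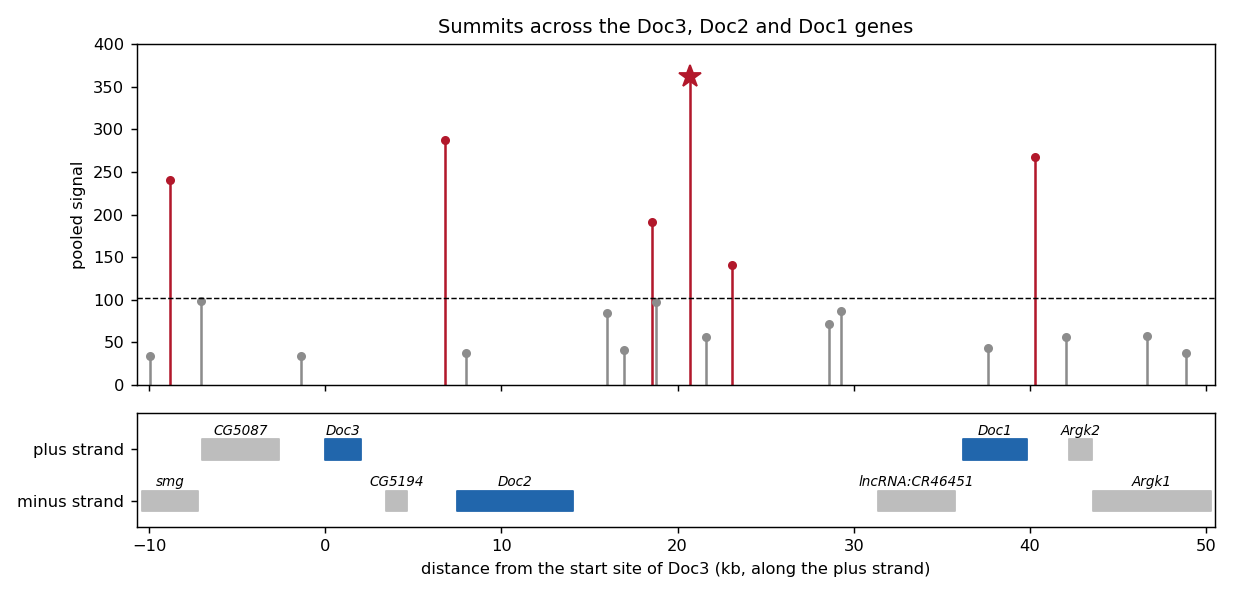
Pooled signal of each summit (upper panel) and the annotated genes by strand (lower panel, T-box genes in blue) against the distance from the Doc3 start site in kb. Red stems passed the threshold of 102 (dashed line), grey stems did not, and the star marks the peak with TTAYGTAA. The 6 red stems stand between and beside the Doc genes, and 3 of them are in the gap between Doc2 and Doc1.

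The mid and H15 genes, which act together in the heart, are neighbours on 2L, separated by 45045 bp. Each had a single thresholded peak, and both peaks lay downstream of the gene near the edge of its window. For mid (FBgn0261963, chr2L:5461639-5467610) the peak at chr2L:5476715-5476970 was 9260 bp beyond the 3' end and 15231 bp from the TSS. Its pooled signal of 492, rank 354, was the second highest of the family. The replicate signals were 207, 141 and 152 (166 ± 35.3, SD, n = 3). The mid and org-1 peaks did not keep 1 order. In replicates 1 and 3 the mid peak was the higher, and in replicate 2 the org-1 peak was.

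For H15 (FBgn0016660, chr2L:5404280-5416593) the peak at chr2L:5425371-5425780 was 8983 bp beyond the 3' end, with a pooled signal of 256. The replicate signals were 117, 64.7 and 65.7 (82.4 ± 29.9, SD, n = 3), at ranks 964, 1702 and 1689. Both the signal and the rank were strongest in replicate 1. The median signal of that list was also the highest, 21.3 against 15.1 and 15.2, and the part of list scale was not tested. In every replicate the H15 peak was weaker than the mid peak. The nearest protein-coding TSS was that of H15 itself, as it was that of mid for the mid peak. No thresholded summit lay inside either gene or within 500 bp of its start sites.

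The longest gene of the family, bi (FBgn0000179, chrX:4412856-4485647), spans 72792 bp and had the weakest thresholded peak. This peak, at chrX:4446036-4446445, lay in an intron 19106 bp from the closest bi start site, and an overlapping non-coding gene, lncRNA:CR32773, covers the same bases. The pooled signal was 116 at rank 3916, and the replicate signals were 49.4, 39.9 and 25.4 (38.2 ± 12.1, SD, n = 3). In replicate 3 it had rank 7037, outside the top 4622 peaks, and in replicates 1 and 2 ranks 3820 and 3119. The other 13 pooled summits of the bi window stayed between 30.2 and 66.2, and 10 of them were inside the gene. The strongest of these, 30789 bp from the closest start site, was found in all replicate lists at 22.9, 13.3 and 28.4.

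The hindgut gene byn (FBgn0011723, chr3L:11927693-11935919) had no thresholded summit in its window. The nearest one lay 67084 bp from the gene, closest to the TSS of Pop2. The strongest of its 5 pooled summits was at chr3L:11918166-11918575, 9322 bp upstream in an intron of CG44837, with a pooled signal of 55.5 at rank 9741. It was found in all 3 replicate lists, with signals of 26.0, 16.2 and 12.1 (18.1 ± 7.12, SD, n = 3), and in none of their top lists. Its −log10 q-value in the pooled list was 0.884, against 3.98 for the thresholded summits of the other genes. It may therefore be background. Its centre held a T-box site, TCACACCT on the plus strand and AGGTGTGA on the other, centred 0.5 bp from the summit. The letters occurred within 50 bp of 0.247% of all pooled summits under the threshold and of 0.216% of the thresholded ones.

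The choice of the family drew on strong peaks at org-1 and Doc2, so the levels and recurrence of its peaks are a description. The pooled signals of the 11 ran from 116 through a median of 268 to 517, and the median over all thresholded peaks was 172. The outer Doc2 peak and the bi peak were below that median. Among the 11, 9 ranked above the median thresholded peak, and 2, those at org-1 and mid, were among the strongest 10% of thresholded peaks. A summit lay within 100 bp in the top 4622 peaks of all 3 replicates for 9 of the 11, against 55.2% of all thresholded peaks. The exceptions were the outer Doc2 peak and the bi peak, each found in 2 top lists. All 11 were in the whole list of every replicate, and 97.3%, 84.4% and 96.7% of all thresholded summits were in those of replicates 1, 2 and 3. The pooled call used the reads of the same replicates, and the threshold was labelled as one by IDR, a measure of agreement between replicates. This recurrence is therefore not independent of the threshold.

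The order of neighbouring peaks within the family was not fixed across replicates. By mean rank over the replicates, org-1 (361 ± 134, SD, n = 3), mid (373 ± 102) and the middle Doc2 peak (723 ± 236) came first. The first pair did not differ beyond their spread and changed places between replicates. Next came the Sptr-side peak of org-1 (1072 ± 365), the peak between Doc3 and Doc2 (1094 ± 207), the Doc1 peak (1224 ± 159), the H15 peak (1452 ± 422) and the smg-side peak of Doc3 (1543 ± 585). Neighbours in this middle stretch differed by less than the larger of their SDs. The inner Doc2 peak (2052 ± 478), the outer Doc2 peak (3869 ± 2521) and the bi peak (4659 ± 2089) came last, and the ranks of the last pair overlapped.

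**Figure D4:**
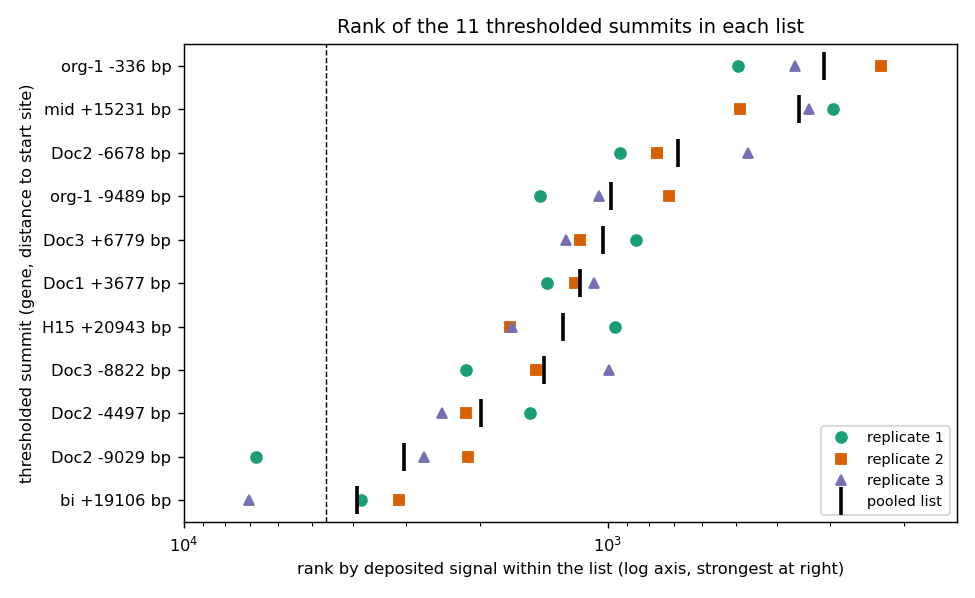
Rank by deposited signal (log axis, strongest at right) of the 11 thresholded summits in the lists of replicates 1, 2 and 3 and in the pooled list, named by gene and distance to the start site. The dashed line is rank 4622. Only the outer Doc2 summit in replicate 1 and the bi summit in replicate 3 fall left of it.

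Below the threshold, weak summits that were not found in all replicates were listed at the family's promoters. They may be background and are not read as binding. In the whole replicate lists, 6 of the 8 genes had a summit within 500 bp of an own TSS in replicate 1, against 53.7% of all genes. In replicate 2 only org-1 had one, against 36.7% of genes, and in replicate 3 every gene except H15 had one, against 54.2%. The pooled list kept such summits at org-1, mid and byn. At mid, 256 bp upstream, the pooled signal was 68.8, with 43.1 in replicate 1, 25 in replicate 3 and no summit in replicate 2. At byn, 214 bp upstream, it was 49.4. The Doc genes had promoter summits of 10.5 to 22.2 in the lists of replicates 1 and 3 and none in that of replicate 2. All of these were far below the signal of 144 or more at the org-1 promoter in the same lists.

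In all, 52 of the 63 pooled summits in the windows were under the threshold, with signals of 29.6 to 98.4 and a median of 38.5. Of these 52, 5 were found in all 3 replicate lists, 21 in 2, 20 in 1 and 6 in none, and 18 lay inside a T-box gene. The summits closest to the threshold from below were a summit 7080 bp upstream of Doc3 at the CG5087 promoter, with a signal of 98.4, and one 4697 bp upstream of Doc2, with 97.4. Just above it was the bi peak at 116. Those found in every replicate list included summits 6897 bp upstream of Doc1 (87.3) and 1937 bp upstream of Doc2 (85.0).

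The thresholded summits of the family lay mostly between genes. By position, 7 of the 11 were intergenic, 3 were within 500 bp of a protein-coding TSS (org-1, Sptr and smg) and 1 was intronic. Over all thresholded summits, 48.8% were at promoters, 34.2% in introns and 15.4% intergenic. For 7 of the 11, the nearest protein-coding TSS was that of a T-box gene. The windows were drawn around these genes, with 10 kb on each side. Both this count and the share between genes were therefore partly set by the choice of windows. No difference from all thresholded summits is read from them. For 5 of the 11 the summit was more than 8 kb outside the member's body, at 8822 to 9489 bp, so flanks of 8 kb or less would not have counted them.

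The PAR bZIP site TTAYGTAA was at 2 of the 11 summits, those at org-1 and Doc2, against 1.19% of all thresholded summits. These are the peaks that led to the choice of the family, so nothing is read from that count. By pooled signal they were in places 3 and 6 among the 55 thresholded peaks with the site. Their strength was part of the choice too, so nothing is read from these places. None of the 52 weaker summits had the site within 50 bp, where 0.619% of all pooled summits under the threshold had it. A summit of signal 43.8 in a Doc1 intron had TTACATAA centred 77.5 bp away. In a search added after seeing the data, allowing 1 mismatch found sites at 3 of the 11 summits, org-1, the middle Doc2 peak and the smg-side peak of Doc3, against 21.2% of all thresholded summits.

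Sites of other factors were searched on both strands within 50 bp. The T-box letters AGGTGTGA, the NK homeobox letters TCAAGTG and the DRE letters TATCGATA, a promoter element of the fly, were at 0 of the 11, and at 0.216%, 1.69% and 2.23% of all thresholded summits. The GATA letters GATAAG were at 1 of the 11, the inner Doc2 peak, against 5.50% of all thresholded summits. Among the 52 weaker summits, TCAAGTG was at 2 in bi introns, TATCGATA at 2 of the bi window and GATAAG at 1, upstream of Doc1. Over all pooled summits under the threshold the shares were 1.80%, 0.909% and 4.49%. With so few summits, no difference from these shares is read. The 101 bases around the 11 summits had a mean GC content of 31.3%, against 35.4% for all thresholded summits. Around the 52 weaker summits it was 44.1%, against 45.0% for all pooled summits under the threshold. These TTAYGTAA forms are themselves rich in A and T, and the part of base composition in the counts was not tested.

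Lists of genes for heart, muscle identity, amnioserosa, hindgut and Dpp signalling with the wing field were read over windows drawn in the same way. In a list of 13 heart and cardiac mesoderm genes, 10 had a thresholded summit in the window (76.9%) and 3 had one at a start site (23.1%). Over all genes, 20.7% had one at a start site. For the muscle, amnioserosa, hindgut and Dpp lists below, the start-site counts were 1 of 16, 2 of 9, 3 of 10 and 0 of 12. No difference from all genes is read from these counts. The highest signals of the heart list were 3369 at ush, a partner of GATA factors, and 1788 at Mef2, the muscle MADS-box factor. The nearest start sites of those summits were those of cbt and Pal1. Of 16 genes of body wall and visceral muscle identity, 7 had a summit (43.8%), led by bin, a FoxF factor of visceral mesoderm, at 324. For the amnioserosa the count was 7 of 9 (77.8%), led by ush, which is on this list too, and then by C15, a homeobox gene, at 750. For the hindgut and gut ends it was 7 of 10 (70.0%), with bowl, a zinc finger gene, at 479, and for Dpp signalling and the wing field 10 of 12 (83.3%), with Med, the fly co-Smad, at 917. The C15 and Med summits were nearest to start sites of sp3 and Mnat9, and the bin and bowl summits to those of bin and bowl. The T-box share of 87.5% and these shares stand beside 64.0% of all genes. Among genes with windows in the T-box genes' range of length the share was 71.3%. The lists were written with earlier results known. The 55 listed genes held 102 thresholded summits, and none of these had TTAYGTAA within 50 bp. Over all thresholded summits the share was only 1.19%, so no contrast with the T-box genes is read from that count.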

How the data were processed

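Peak lists in narrowPeak form, deposited by the authors for 3 replicates, for the replicates pooled and as a thresholded list, were read in dm6 coordinates. The lists in dm3 coordinates, and lists of control or mock precipitations, were not used here. The deposited signal of each peak is the authors' peak caller's own value, and it served only to rank and describe peaks within a list. Means ± SD over replicate lists are descriptions and can include differences of scale, since the median signals were 21.3, 15.1 and 15.2. The deposited −log10 q-value entered no test. Which aligner and which peak caller made the lists is not given in the sources used here. Replicate lists were not compared with untagged embryos, and no read counts were used, so precision cannot be given from depth.

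Summits were the peak start plus the deposited offset. Genes came from Ensembl release 115, restricted to 6 chromosome arms. A replicate match was the nearest summit within 100 bp, in the whole list or in its top 4622 peaks. A summit within 500 bp of a protein-coding TSS was classed as promoter, and the others as UTR, coding sequence, intron or intergenic, the first that applied. Motifs were searched on both strands, wholly within 50 bp of a summit. Tables and figures were made with Python 3.11.15, pandas 2.3.3, numpy 2.4.6 and matplotlib 3.10.9, and the code was tested on simulated peaks. With 1 group there is no test. The members and lists were chosen with earlier results of these data known. The named items are the 8 genes, all their thresholded summits, the strongest weaker summit of a gene with none, the summits next to the threshold, and up to 4 genes of each list by signal. Other named weaker summits, and the Argk1 peak, were picked after their values were seen. Alternatives changed the flank, the peak set, the match, promoter and motif distances, the motif form and the replicates used.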

Additional observations from a re-analysis of the deposited data

How the results depend on the processing

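The counts rest on the flank. With the gene bodies alone, 1 gene had a thresholded summit, 1 summit was counted, 0 were in all 3 top lists and 0 held TTAYGTAA. With 2 kb of flank these became 4 genes, 4 summits, 3 in all top lists and 1 with the site, and with 5 kb there were 5 summits, 4 in all top lists and 1 with the site. For gene bodies alone the share over all genes was 12.0%. For the 2 kb and 5 kb flanks, and for the replicate pairs below, no such share is given. The same holds for the promoter counts below, of the whole pooled list and at 200 bp. Those gene counts are therefore not compared with genes in general. The whole pooled list gave 63 summits and 3 genes with a promoter summit. A start site distance of 200 bp left 0 genes with a promoter summit, a motif window of 25 bp left 1 summit with the site, and the longer form, with a purine before and a pyrimidine after the site, left 0.

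Requiring a match in the top lists of each pair of replicates, leaving out 1 replicate at a time, gave 6 to 7 genes and 9 to 10 summits. All of these summits were supported by that requirement itself, so their support is not a separate result. There was 1 gene with a promoter summit and 2 summits with the site. The gene lost was bi, without replicate 1 or replicate 2. All 11 pooled ranks were within 1 SD of the mean rank. No paired analysis was possible because all samples form 1 group. Read depth is unknown, so absence from a list does not show absence of binding.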

Other observations

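Outside the 10 kb windows, 4 thresholded summits lay within 20 kb of a T-box gene. Beside the Argk1 peak beyond Doc1, these were a peak of signal 157 at the Galk promoter, 19002 bp from Doc3, and peaks of 111 and 129 at 12835 and 19808 bp beyond bi. The bi pair lay between bi and CG3556. Neither of the pair, nor the Galk peak, held TTAYGTAA within 50 bp.

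The weaker byn summit 9322 bp upstream also held the letters TGACGTCA, a palindrome known as the CRE, centred 7.5 bp from the summit and beside the T-box letters. This search was added after the sequence was seen. TGACGTCA was within 50 bp of 0.108% of all thresholded summits and 0.121% of the weaker pooled ones, and at 0 of the 11 thresholded summits of the T-box genes.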
